A study of Homo sapiens with 8 samples.

Results

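The comparison described here is that of A549 cells given 40 nM TP-0903 with control cells that carry no hairpin. It rests on 4 of the 8 RNA sequencing libraries of the series: control P17, TP-0903 P17, control P4 and TP-0903 P4, chosen by their titles and paired by the number after the letter P. A549 is an established human lung cancer cell line, and the series asks which pathways could let such cells resist TP-0903, an inhibitor of the receptor tyrosine kinase AXL. The other 4 libraries are of A549 cells with a control short hairpin RNA (shRNA) or an AXL shRNA (P15 and P3). They entered the fit, so they share in the estimate of spread behind every p-value. Otherwise they are used here only where the drug is set beside them. All 8 libraries come from the same line grown in F12K medium with serum. The labels do not say what the control cells received or how long the drug was present. They also do not say what the P number stands for or whether the replicates came from separate cultures. The p-values therefore rest on the spread of these libraries that is left once the P number is accounted for.

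AXL, TYRO3 and MERTK form the TAM family of receptor tyrosine kinases, which the ligands GAS6 and protein S (PROS1) switch on, and AXL signalling is known in lung cancer for its ties to mesenchymal traits and drug resistance. TP-0903 also acts on other kinases, Aurora kinases among them. When cells leave the cycle, the retinoblastoma family and the p53 target p21 (CDKN1A) keep E2F and FOXM1 from switching on the genes of DNA replication and mitosis, so these genes are known to fall together.

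The totals of the 4 libraries lay between 33013203 and 38908570 expected counts (reads per gene as estimated by the quantification program). Levels are given as CPM, the counts of a gene relative to the scaled total of its library. Of 10 genes known at a high level in A549, 9 were at 71.4 CPM or more in each of the 4 libraries, and EPCAM was at 3.08 to 7.66 CPM. Of the markers of other cell types, CD3E, HBB and KDR were at 0 in all 4, and the sums over 10 blood, 9 fibroblast and 7 endothelial markers were 14.4 to 20.7, 18.1 to 30.5 and 4.98 to 6.14 CPM.

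TP-0903 changed 4647 of 17676 tested genes (26.3%) at an adjusted p under 0.05, in a fit that compares each drug library with the control of the same P number. Of these, 2285 (12.9% of those tested) were higher and 2362 (13.4%) were lower, with changes above 2-fold in 653 and 924 genes. Both pairs lay on the side of the call for 4637 of the 4647 genes, and the drug and control libraries did not overlap for 4381, against 59.8% of all tested genes. Without the pairing 1989 genes were called, 866 higher and 1123 lower, and 1986 of these were among the 4647. With a library left out, so that a single pair carries the contrast, 1367 genes were called without control P17, 886 without TP-0903 P17, 2474 without control P4 and 2604 without TP-0903 P4. The share called rose with the level, from 6.64% of genes under 1 CPM to 38.5% of those over 100 CPM.

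**Figure D1:**
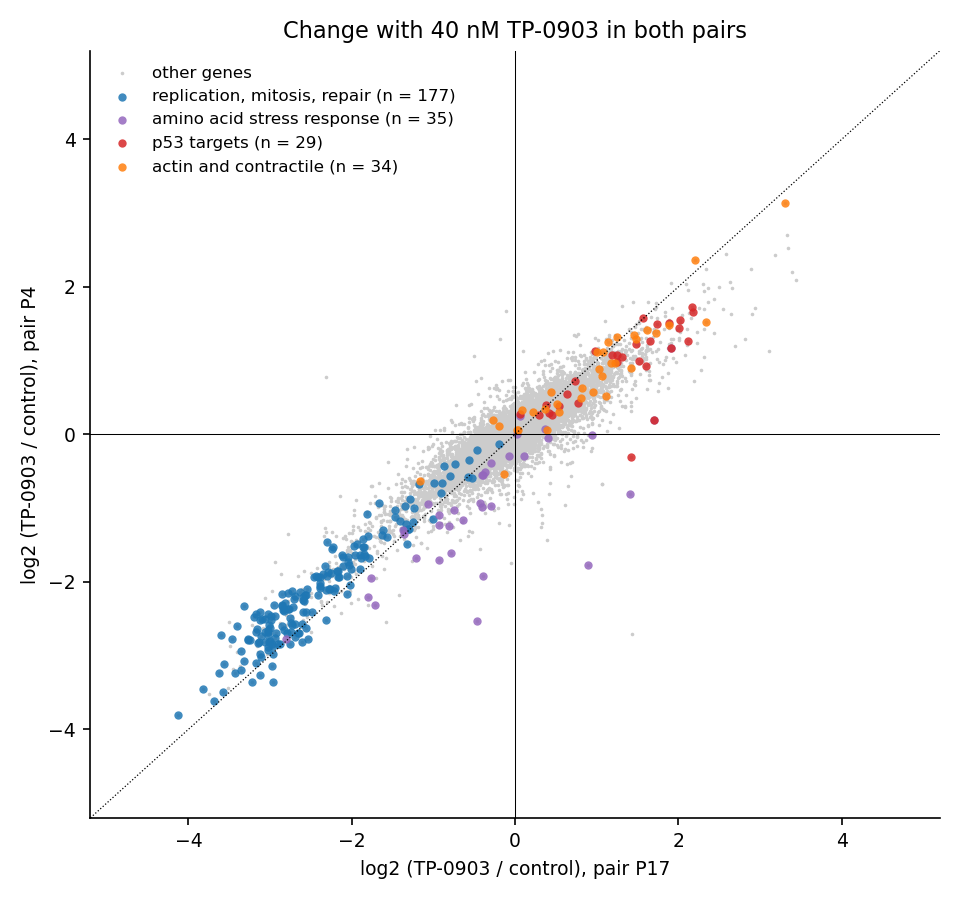
Each point is a gene whose mean over the 4 libraries reached 5 CPM. The horizontal axis is log2 of TP-0903 over control CPM (plus 0.5) in pair P17, the vertical axis the same in pair P4, the dotted line marks equal change, and colours mark gene lists. The replication, mitosis and repair genes lie at the lower left in both pairs, and the p53 targets and contractile genes mostly at the upper right.

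Across the 11157 genes whose mean reached 5 CPM, which are not independent replicates, the change in pair P17 correlated with that in pair P4 at r = 0.913. The spread of the log2 changes was wider in pair P17 (SD 0.689) than in pair P4 (0.572). Only 8 of the 11157 genes moved by 1.5-fold or more in opposite directions. They included STC2, a secreted glycoprotein induced by stress, which was at 26.5 CPM in control P17 and 49.8 in TP-0903 P17 but at 113.0 in control P4 and 32.7 in TP-0903 P4. They also included the stress-induced transcription factor ATF3, at 2.14 and 6.51 CPM in pair P17 and at 10.4 and 5.71 in pair P4. Neither gene passed the test, with adjusted p = 0.547 for STC2 and 0.763 for ATF3.

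The target itself was transcribed at a slightly higher level with the drug. AXL was at 216.2 CPM in control P17 and 279.6 in TP-0903 P17, and at 104.6 in control P4 and 153.4 in TP-0903 P4. It was higher with the drug in both pairs, but control P17 lay above TP-0903 P4, so the groups overlap. The log2 fold change was 0.46 ± 0.13 (SE) with adjusted p = 0.0354, and without the replicate block the adjusted p was 0.544. Per length, AXL was the most abundant TAM receptor in all 4 libraries, at 70.7, 91.4, 34.8 and 49.3 TPM (transcripts relative to the library, corrected for length) in control P17, TP-0903 P17, control P4 and TP-0903 P4. TYRO3 was at 3.92 to 7.56 TPM and MERTK at 0.71 to 2.03 TPM.

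TYRO3 fell from 13.7 to 8.21 CPM in pair P17 and from 15.02 to 9.70 in pair P4 (log2 fold change -0.68 ± 0.17, adjusted p = 0.0179, and 0.0917 without the replicate block). The ligand GAS6 rose from 8.71 to 15.8 and from 6.92 to 9.14 CPM (0.63 ± 0.17, adjusted p = 0.028, and 0.155 without the block). Of the family, then, AXL and GAS6 were called higher and TYRO3 lower. MERTK and PROS1 did not pass the test, at log2 fold changes of -0.06 ± 0.23 and -0.13 ± 0.12. None of the 3 calls held without the block, where each was past an adjusted p of 0.05.

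Nearly all tested cell division genes fell. Of 51 tested genes of DNA replication and nucleotide supply, 51 fell, as did 53 of 53 kinetochore, spindle and condensin genes, 12 of 12 mitotic kinesins, 30 of 31 mitotic kinases and their regulators and 30 of 31 homologous recombination and Fanconi genes. The median log2 fold changes of these lists were -2.10, -2.64, -2.70, -2.58 and -2.51, beside -0.01 for all tested genes, and 13.4% of all tested genes were lower. Without the block 49, 51, 12, 29 and 29 members were lower. In bulk RNA, fewer cells of a type and less RNA per cell cannot be told apart, and this holds for each list below.

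**Figure D2:**
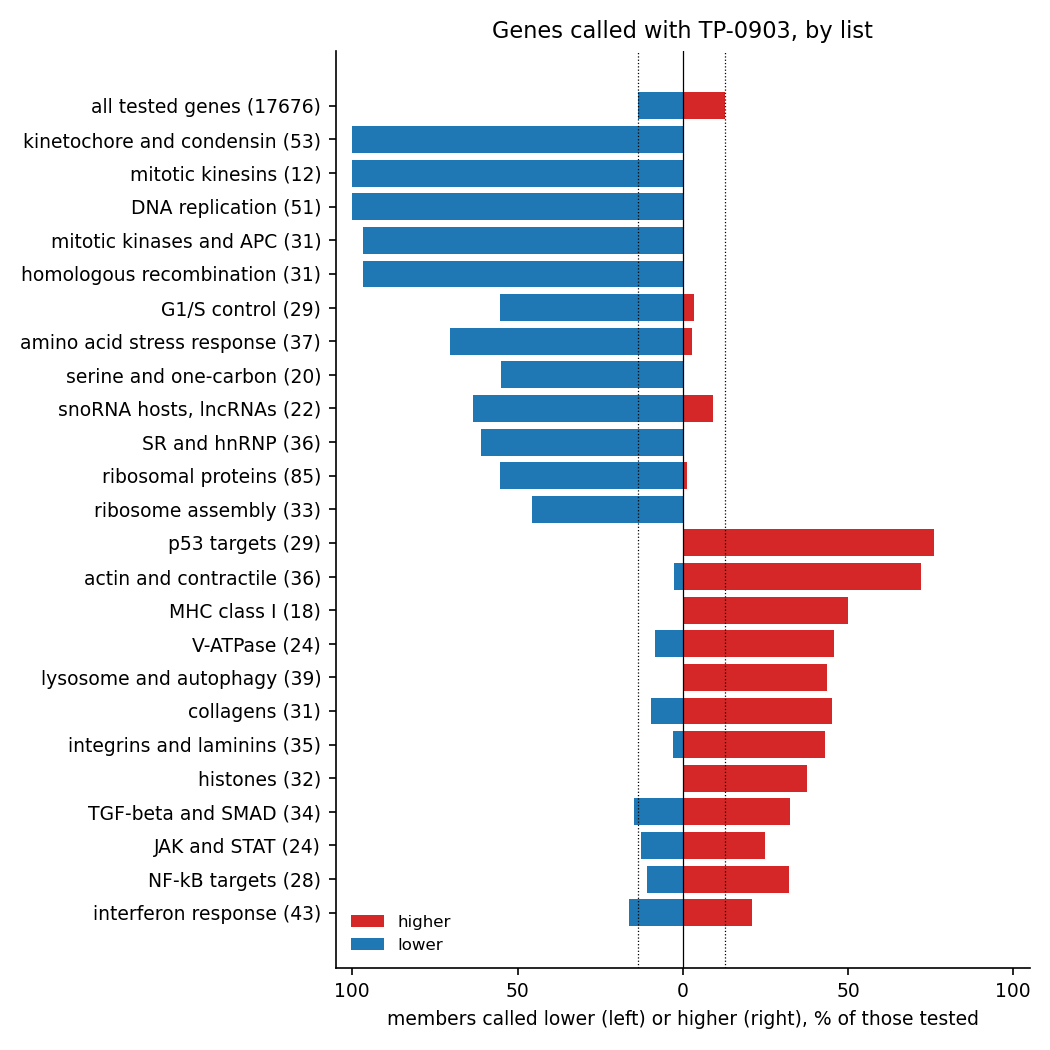
Bars give the share of tested members of each list called lower (blue, to the left) or higher (red, to the right) with TP-0903, with the number tested in brackets and dotted lines at the shares of all tested genes. The cell division lists reach up to 100% lower, and of the lists drawn the p53 and contractile lists have the largest shares higher, at 75.9% and 72.2%.

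The replication genes fell from the licensing step onward. MCM10, which helps start the replicative helicase, was at 73.4 CPM in control P17 and 3.73 in TP-0903 P17, and at 49.8 in control P4 and 3.11 in TP-0903 P4. The drug libraries lay more than 10-fold below both controls (log2 fold change -4.15 ± 0.18, adjusted p = 6.46e-06). RRM2, the subunit of ribonucleotide reductase that supplies DNA building blocks, was at 207.7 and 14.2 CPM in pair P17 and at 176.8 and 15.7 in pair P4 (-3.68 ± 0.14). MCM2, a subunit of the helicase ring, was at 138.0 and 13.9 CPM in pair P17 and at 105.3 and 14.97 in pair P4 (-3.06 ± 0.15). CDT1, which loads the helicase, CDC45, which activates it, PRIM1, the primase, DTL, which targets CDT1 for degradation, and CLSPN, a checkpoint mediator at the fork, fell by 3.47 to 3.82 on the log2 scale.

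Among the E2F factors, cyclins and other regulators of the G1/S step, 16 of 29 tested genes fell and 1 rose (median log2 fold change -0.79). E2F2 had the largest fall of any protein-coding gene at 5 CPM or more, from 16.2 to 0.741 CPM in pair P17 and from 11.97 to 0.586 in pair P4 (-4.40 ± 0.32). E2F1 and E2F8 had log2 fold changes of -3.44 and -3.789, and MYBL2, which joins the complex that switches on mitotic genes, of -3.55. By contrast E2F3, E2F4, E2F5 and E2F6 did not pass the test, with log2 fold changes from -0.29 to 0.06. The member that rose was cyclin D1 (CCND1), a partner of CDK4 and CDK6, from 366.9 to 841.7 CPM in pair P17 and from 456.4 to 856.9 in pair P4 (1.05 ± 0.14, adjusted p = 0.00126).

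E2F factors bind sites close to the start of such genes, and 2 of the promoters are shown because the replication genes fell together. The 180 bases run from 150 before to 30 after the RefSeq gene start (build GRCh38.p14), in lower case with matches to TTTNNCGC on either strand in capitals: MCM2 (chr3:127598261-127598440, plus strand) and CLSPN (chr1:35769949-35770128, minus strand).
MCM2: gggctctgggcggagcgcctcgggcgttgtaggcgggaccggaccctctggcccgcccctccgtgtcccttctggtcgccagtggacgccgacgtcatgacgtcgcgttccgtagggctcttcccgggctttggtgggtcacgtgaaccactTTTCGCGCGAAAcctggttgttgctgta
CLSPN: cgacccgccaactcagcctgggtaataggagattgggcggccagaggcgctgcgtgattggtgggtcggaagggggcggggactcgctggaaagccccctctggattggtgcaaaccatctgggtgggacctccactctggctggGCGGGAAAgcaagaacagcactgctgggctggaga
In windows of 300 bases, from 250 before to 50 after the start, TTTNNCGC stood in 23 of 45 promoters of replication genes with an entry (51.1%), in 10.1% of the promoters of 11590 tested genes and in 14.8% of those of 1751 genes called lower. The matches describe letters in the window and not binding.

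The mitotic genes fell too. PRC1, which bundles microtubules of the central spindle, was at 265.5 CPM in control P17 and 39.2 in TP-0903 P17, and at 193.7 in control P4 and 29.7 in TP-0903 P4 (-2.73 ± 0.10, adjusted p = 6.46e-06). MKI67, the proliferation antigen Ki-67, was at 380.8 and 46.7 CPM in pair P17 and at 238.0 and 33.3 in pair P4 (-2.93 ± 0.11). TOP2A, the topoisomerase that untangles chromosomes, was at 944.2 and 115.7 CPM in pair P17 and at 656.1 and 99.3 in pair P4 (-2.88 ± 0.12). In each of these genes the 2 drug libraries lay close together and well below both controls. The motors KIF11, KIF18B, KIF4A and KIF14 fell by 2.63 to 3.06, and CDC20 and UBE2C, which drive the anaphase-promoting complex, by 2.91 and 2.95.

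The Aurora kinases, known targets of the drug besides AXL, were among the mitotic genes that fell. AURKA was at 146.1 and 27.6 CPM in pair P17 and at 113.8 and 27.0 in pair P4 (-2.24 ± 0.12, adjusted p = 9.02e-06). AURKB was at 60.2 and 6.51 CPM in pair P17 and at 46.2 and 5.27 in pair P4 (-3.17 ± 0.16, adjusted p = 8.34e-06). Of the other kinases on the list of known targets, ABL1 (-0.01 ± 0.10), JAK2 (0.07 ± 0.14) and LYN (-0.20 ± 0.15) did not pass the test, MET rose (0.65 ± 0.11, adjusted p = 0.00412, and 0.062 without the block) and ALK was too low to be tested.

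Promoters of mitotic genes often hold a cell cycle genes homology region (CHR), the site of the MuvB complex, and 2 are shown with CHR letters, TTTGAA or TTCGAA on either strand, in capitals: PRC1 (chr15:90994506-90994685, minus strand) and MKI67 (chr10:128126394-128126573, minus strand).
PRC1: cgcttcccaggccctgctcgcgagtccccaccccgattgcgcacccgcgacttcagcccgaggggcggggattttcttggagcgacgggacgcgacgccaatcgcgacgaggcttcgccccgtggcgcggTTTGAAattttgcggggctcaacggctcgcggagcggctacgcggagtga
MKI67: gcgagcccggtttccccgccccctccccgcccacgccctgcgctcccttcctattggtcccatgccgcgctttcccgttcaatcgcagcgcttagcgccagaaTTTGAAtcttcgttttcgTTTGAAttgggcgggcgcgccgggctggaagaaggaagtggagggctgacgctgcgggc
CHR letters stood in the windows of 14 of 24 mitotic kinase genes called lower (58.3%), of 30 of 43 kinetochore genes (69.8%) and of 11 of 12 kinesin genes (91.7%), beside 11.4% of all 11590 promoters. A CCAAT box stood in 70.8%, 60.5% and 91.7% of the same promoters and in 36.1% of all.

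The repair genes that act on replicating DNA moved with them. BRCA1 was at 135.0 and 13.6 CPM in pair P17 and at 93.6 and 13.1 in pair P4 (-3.08 ± 0.16), and EXO1, a nuclease, BLM, a helicase, and FANCI, a Fanconi protein, fell by 2.64 to 3.42. For the histone genes the direction was the other. Of 32 tested genes of the histone clusters, 12 rose and 0 fell (median log2 fold change 0.71). Without the block 8 rose, and with any 1 of the 4 libraries left out 2 to 9. HIST1H2BC was at 1.81 and 12.6 CPM in pair P17 and at 2.58 and 11.8 in pair P4 (2.48 ± 0.25, adjusted p = 0.000247). HIST1H4H and HIST2H2BF rose by 1.99 and 1.59 on the log2 scale. Transcripts of these genes normally end in a stem-loop and not in a poly(A) tail, many are near-identical copies, and how reads were shared between copies could change single members.

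Of 192 cell cycle genes called lower, 178 fell by more than 2-fold, but 746 genes outside the lists did so too. The 12 protein-coding genes outside the lists with the largest falls were themselves mostly known from replication and mitosis. ESCO2, which acetylates cohesin, DSCC1, a clamp loader subunit, TICRR, which starts replication forks, and FAM111B, a protease, fell by 2.98 to 3.30. ATAD2, a chromatin factor, was at 172.4 and 18.9 CPM in pair P17 and at 135.8 and 18.2 in pair P4 (-3.04 ± 0.14). WDR76, TCF19, PIF1, NEIL3, ZNF367, GTSE1 and DEPDC1 fell by 2.94 to 3.35.

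The libraries of the hairpin groups, both control shRNA and AXL shRNA, were also low in these genes. Relative to the mean of the control libraries, the median of the 239 tested cell cycle genes was 0.17 in control P17 and -0.17 in control P4, -2.09 in TP-0903 P17 and -2.20 in TP-0903 P4, -2.02 in both control shRNA libraries, and -1.73 and -1.55 in the AXL shRNA libraries. Their share of all counts was 1.93% and 1.54% in control, 0.549% and 0.553% with TP-0903, 0.536% and 0.554% in the control shRNA libraries, and 0.646% and 0.694% in those of AXL shRNA. The 2 control libraries without a hairpin were thus the only 2 of the 8 with high cell cycle genes, and the drug libraries lay at about the level of the control shRNA libraries. The part that culture conditions had in this was not tested.

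**Figure D3:**
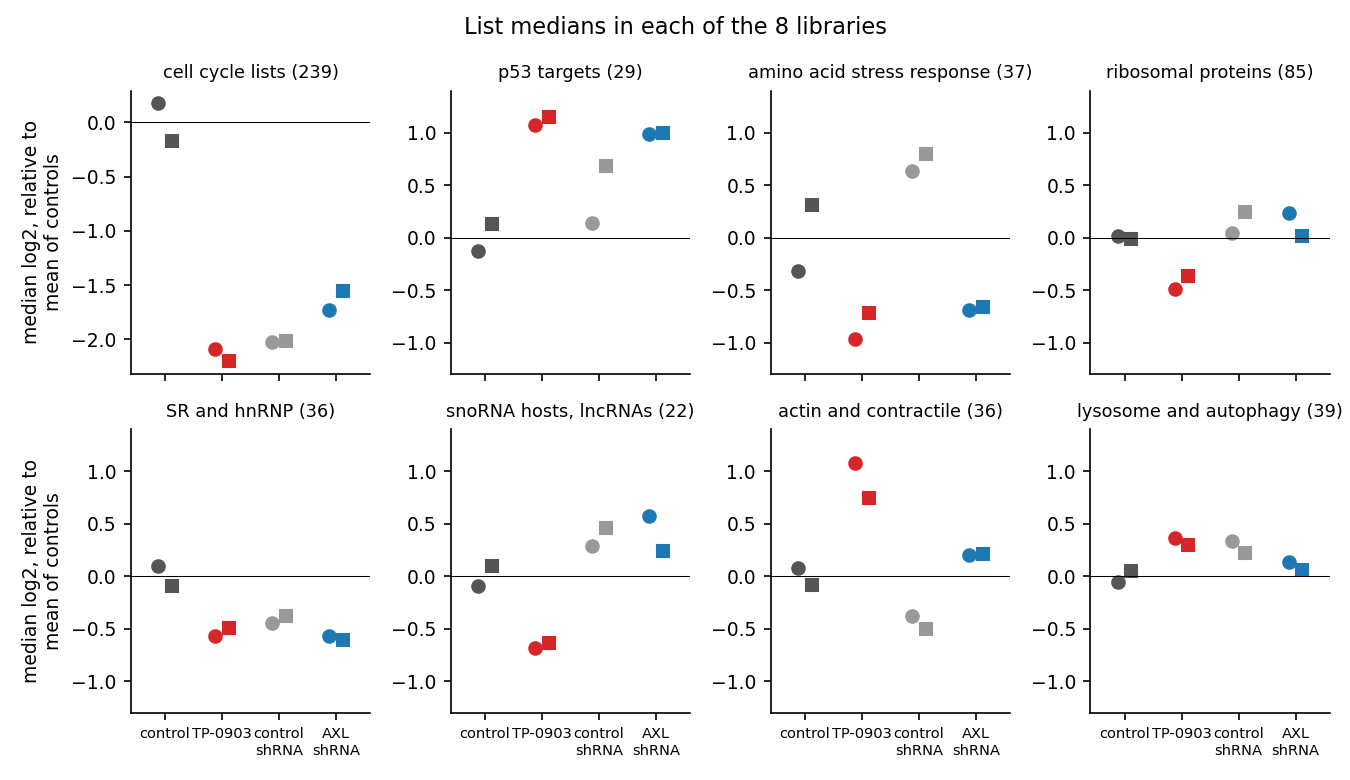
Each panel gives a gene list, with the number of genes in brackets. Each point is the median over the list, in 1 library, of log2 (CPM + 0.5) relative to the mean of the 2 control libraries; circles are P17 or P15, squares P4 or P3, and the cell cycle panel has its own scale. The cell cycle genes are low in all groups but control. The ribosomal protein genes and the list of snoRNA hosts and other long RNAs are low in the TP-0903 libraries alone.

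Targets of p53, the tumour suppressor that answers DNA damage and other stress, rose as a group. Of 29 tested targets, 22 rose and 0 fell (75.9% higher, median log2 fold change 1.16), and 19 rose without the block and 13 to 22 with any 1 of the 4 libraries left out. ZMAT3, an RNA-binding target, was at 29.1 CPM in control P17 and 132.1 in TP-0903 P17, and at 34.8 in control P4 and 116.6 in TP-0903 P4 (1.96 ± 0.13, adjusted p = 2.61e-05). BTG2, an antiproliferative target, was at 15.96 and 74.0 CPM in pair P17 and at 19.8 and 63.2 in pair P4 (1.94 ± 0.14). TP53INP1, which acts in autophagy and cell death, and POLH, a translesion polymerase, rose by 1.72 and 1.60. In all 4 genes both drug libraries lay above both controls.

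CDKN1A, MDM2 and FAS are given because they are the best known targets and were chosen after their values were seen. CDKN1A, the CDK inhibitor p21, was at 169.4 and 636.4 CPM in pair P17 and at 267.6 and 601.9 in pair P4 (1.54 ± 0.21, adjusted p = 0.00135). MDM2, which degrades p53, and FAS, a death receptor, rose by 1.13 ± 0.16 and 1.81 ± 0.19. GDF15, a secreted target that stress also induces, was at 21.8 and 59.0 CPM in pair P17 and at 90.1 and 72.4 in pair P4, and did not pass the test (adjusted p = 0.323). The other CDK inhibitors fell where they were called: CDKN1B (p27) was at 54.8 and 23.1 CPM in pair P17 and at 50.1 and 22.8 in pair P4 (-1.19 ± 0.11, adjusted p = 0.000138), and CDKN2C and CDKN3 fell by 2.07 and 2.43.

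Among genes of cell death, 22 listed members of the BCL2 and inhibitor of apoptosis families were tested. Of these 5 rose (22.7%) and 1 fell (4.55%), beside 12.9% and 13.4% of all tested genes. BCL2L1, which encodes the survival protein BCL-xL, rose from 212.4 to 460.2 CPM in pair P17 and from 272.1 to 381.3 in pair P4 (0.80 ± 0.16, adjusted p = 0.007). BIRC3 rose by 0.95 ± 0.18 and the killer genes BIK and BAK1 by 1.395 ± 0.32 and 0.52 ± 0.11. Without the block 2 members rose, BCL2L1 and BIK, while BIRC3 and BAK1 had adjusted p = 0.0691 and 0.106. BCL2L11, which encodes the killer protein BIM, fell (-1.05 ± 0.29, adjusted p = 0.0278, and 0.235 without the block). BIRC5, an inhibitor of apoptosis gene that is not on this list, was named after its values were seen. It was called lower, with log2 fold changes from -2.78 to -2.69 over the alternative fits.

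**Figure D4:**
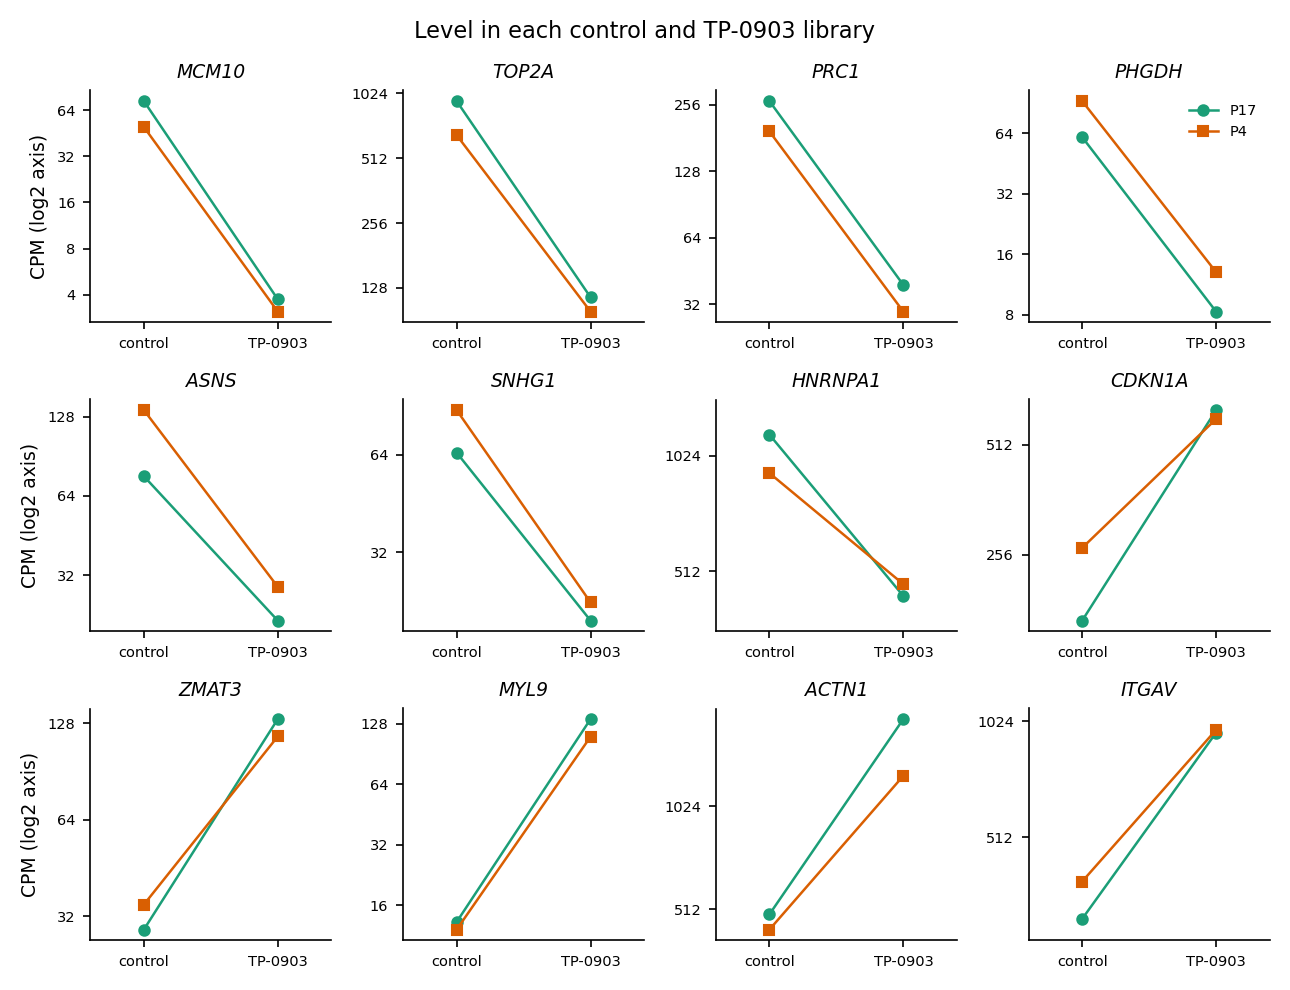
Each panel gives the CPM of a gene (log2 axis, a different range in each panel) in the control and TP-0903 libraries, with lines joining the libraries of the same P number. The lines of P17 (circles) and P4 (squares) run in the same direction in each of the 12 genes, down for the upper row and for ASNS, SNHG1 and HNRNPA1, and up for the others.

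The integrated stress response, in which ATF4 switches on amino acid uptake and synthesis, was lower with the drug. Of 37 tested genes 26 fell (70.3%) and CDKN1A rose (median log2 fold change -0.89), and 12 fell without the block and 14 to 23 with any 1 of the 4 libraries left out. PHGDH, the entry enzyme of serine synthesis, was at 61.2 CPM in control P17 and 8.30 in TP-0903 P17, and at 92.6 in control P4 and 13.0 in TP-0903 P4 (-2.85 ± 0.11, adjusted p = 6.46e-06). ASNS, asparagine synthetase, was at 76.0 and 21.5 CPM in pair P17 and at 135.5 and 28.9 in pair P4 (-2.03 ± 0.13). CBS, an enzyme of cysteine synthesis, and PCK2, a mitochondrial enzyme of gluconeogenesis, fell by 1.93 and 2.08. ATF4 itself was at 209.3 and 124.6 CPM in pair P17 and at 284.3 and 139.7 in pair P4 (-0.89 ± 0.12, adjusted p = 0.00103).

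The 2 control libraries differed in this group, and the fall was deeper in pair P4. The median change of the 37 genes was -0.44 in pair P17 and -0.98 in pair P4, and relative to their mean the controls stood at -0.31 (P17) and 0.31 (P4). CHAC1, which breaks down glutathione, was at 4.52 and 3.12 CPM in pair P17 and at 31.0 and 4.92 in pair P4, and the factor DDIT3 (CHOP) at 7.66 and 5.71 and at 26.9 and 6.77. Both were called lower, with adjusted p = 0.0218 and 0.0200, and 0.127 and 0.113 without the block. In both genes control P4 was the highest of the 4 libraries. CHAC1, DDIT3 and ATF4 were chosen after their values were seen.

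ATF4 binds C/EBP-ATF response elements (CARE), and the promoters of 2 members are shown with TGATGNAA on either strand in capitals, ASNS (chr7:97872379-97872558, minus strand) and SLC7A1, an arginine transporter that fell by 0.91 (chr13:29595659-29595838, minus strand).
ASNS: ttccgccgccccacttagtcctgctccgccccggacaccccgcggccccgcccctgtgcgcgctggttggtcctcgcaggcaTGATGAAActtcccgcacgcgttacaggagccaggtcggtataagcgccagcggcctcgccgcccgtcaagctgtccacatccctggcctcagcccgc
SLC7A1: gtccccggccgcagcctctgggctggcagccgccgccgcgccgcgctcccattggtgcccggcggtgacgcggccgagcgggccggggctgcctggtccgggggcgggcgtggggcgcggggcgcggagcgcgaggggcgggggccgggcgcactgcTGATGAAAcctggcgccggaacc
These letters stood in 6 of 31 windows of the list (19.4%), in 4 of 21 of its members called lower (19%), and in 1.8% of all 11590.

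Serine, folate and tRNA synthetase genes overlapped with that list in part. Of 20 serine and folate enzymes 11 fell and 0 rose (median -0.48), 7 fell without the block, and 5 to 9 with any 1 of the 4 libraries left out. PSAT1, the next enzyme after PHGDH, fell by 1.02 ± 0.11 and ALDH1L2, of mitochondrial folate, by 1.41 ± 0.14. Of 20 cytosolic aminoacyl-tRNA synthetases 7 fell and 2 rose, HARS and SARS, and 3 fell without the block and 1 to 4 with a library left out. AARS fell from 335.9 to 131.1 CPM in pair P17 and from 437.9 to 163.9 in pair P4 (-1.39 ± 0.14, adjusted p = 0.000217).

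Genes of the translation machinery fell by less, but in large numbers. Of 85 tested cytosolic ribosomal protein genes, 47 fell (55.3%) and RPS27L, which is a p53 target, rose. The median log2 fold change was -0.44, with -0.50 in pair P17 and -0.37 in pair P4, and the list's share of all counts went from 5.03% to 3.4% in pair P17 and from 5.13% to 3.75% in pair P4. RPSA was at 1416 and 742.2 CPM in pair P17 and at 1270 and 805.2 in pair P4 (-0.79 ± 0.13, adjusted p = 0.00245), and RPS3 was at 937.8 and 515.6 and at 929.3 and 561.2 (-0.80 ± 0.13). The largest falls were of the variant proteins RPL22L1 (-1.81 ± 0.25) and RPL39L (-1.28 ± 0.16). Without the block 22 members were lower, and 2 to 13 with any 1 of the 4 libraries left out. Many ribosomal protein genes have processed pseudogenes, between which the counting could split reads.

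Factors of ribosome assembly and nucleotide synthesis known as MYC targets fell in 15 of 33 tested genes and rose in 0 (median -0.36). FBL, which methylates ribosomal RNA, was at 264.4 and 118.1 CPM in pair P17 and at 222.1 and 124.5 in pair P4 (-0.999 ± 0.13, adjusted p = 0.00106). IMPDH2, of guanine nucleotide synthesis, fell by 1.401 ± 0.11 and NOP56 by 0.82 ± 0.12. MYC itself did not pass the test (-0.37 ± 0.15, adjusted p = 0.102). Without the block 9 of the 33 fell, and 1 to 10 with any 1 of the 4 libraries left out.

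Hosts of small nucleolar RNAs, which guide the modification of ribosomal RNA and whose spliced transcripts are often decayed during translation, fell with them. In a list of 22 such hosts and other nuclear long RNAs, 14 fell and 2 rose (median -0.72), 9 fell without the block, and 7 to 11 with any 1 of the 4 libraries left out. SNHG1 was at 65.1 and 19.7 CPM in pair P17 and at 88.1 and 22.4 in pair P4 (-1.85 ± 0.17, adjusted p = 0.000138). SNHG7, SNHG5 and GAS5 fell by 1.34, 1.11 and 1.26. NEAT1 and MALAT1, which host no such RNA, were at -0.30 ± 0.13 and 0.34 ± 0.12 and did not pass the test. The 2 that rose were MEG3 (1.54) and PVT1 (0.88). GAS5, NEAT1, MALAT1, MEG3 and PVT1 were named after their values were seen.

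The SR and hnRNP splicing factors fell in 22 of 36 tested genes and rose in 0 (61.1%, median -0.50). HNRNPA1 was at 1161 CPM in control P17 and 441.8 in TP-0903 P17, and at 922.4 in control P4 and 474.3 in TP-0903 P4 (-1.18 ± 0.13, adjusted p = 0.000436). TRA2B fell by 1.05 ± 0.11, SRSF7 by 1.01 ± 0.13 and HNRNPH3 by 0.96 ± 0.13. Without the block 17 fell, and 2 to 17 with any 1 of the 4 libraries left out. Both hairpin groups also stood low in this list, at -0.38 to -0.61 relative to the controls, beside -0.57 and -0.49 with TP-0903.

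Mitochondrially encoded genes went the other way. All 15 tested were higher (median log2 fold change 0.65), and their share of counts was 3.68% and 3.58% in the control libraries and 5.16% and 5.82% with TP-0903. MT-CYB, of complex III, was at 1646 and 2529 CPM in pair P17 and at 1427 and 2417 in pair P4 (0.69 ± 0.12, adjusted p = 0.00466), and MT-ND1, of complex I, rose by 0.87 ± 0.14. Without the block only MT-CYB and MT-CO2 were called, and with any 1 of the 4 libraries left out 1 to 3. These genes share 1 transcript source, and their share is also a common sign of RNA and cell quality, whose part was not tested. Of 88 nuclear genes of the respiratory chain 3 were higher and 2 lower (3.41% and 2.27%, beside 12.9% and 13.4% of all tested genes, median -0.01), and of 78 mitochondrial ribosomal protein genes 13 fell and 1 rose, with 6 lower without the block and 0 to 5 with any 1 of the 4 libraries left out.

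Genes of the actin cytoskeleton, many of them targets of serum response factor (SRF), rose in most of the list. Of 36 tested contractile genes 26 rose (72.2%) and the myosin MYH10 fell (median log2 fold change 0.94). Without the block 21 rose, and with any 1 of the 4 libraries left out 16 to 21. MYL9, a myosin light chain, was at 13.2 CPM in control P17 and 135.0 in TP-0903 P17, and at 12.1 in control P4 and 110.3 in TP-0903 P4 (3.27 ± 0.21, adjusted p = 2.01e-05). ACTN1, which crosslinks actin, was at 495.3 and 1834 CPM in pair P17 and at 447.3 and 1254 in pair P4 (1.69 ± 0.13). The focal adhesion proteins ZYX and VCL rose by 1.39 ± 0.11 and 1.28 ± 0.11. The smooth muscle genes TAGLN and ACTA2, named after their values were seen, were at 65.9 and 305.6 CPM and at 13.6 and 71.1 CPM in pair P17, and at 34.5 and 180.2 and at 19.1 and 55.7 in pair P4. The housekeeping actins ACTB (0.26) and ACTG1 (-0.04) did not pass the test.

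SRF binds the CArG box, CC and GG around a run of A and T letters, which was searched after the rise was seen. The promoters of 2 called members that hold it are shown with the box in capitals, FLNA, a crosslinker that rose by 1.404 ± 0.13 (chrX:154374605-154374784, minus strand), and CNN2, calponin 2, which rose by 1.06 ± 0.10 (chr19:1026458-1026637, plus strand).
FLNA: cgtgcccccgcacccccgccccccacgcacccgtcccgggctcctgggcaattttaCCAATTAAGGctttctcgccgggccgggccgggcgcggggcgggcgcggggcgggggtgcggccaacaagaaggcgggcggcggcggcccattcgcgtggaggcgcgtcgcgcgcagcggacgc
CNN2: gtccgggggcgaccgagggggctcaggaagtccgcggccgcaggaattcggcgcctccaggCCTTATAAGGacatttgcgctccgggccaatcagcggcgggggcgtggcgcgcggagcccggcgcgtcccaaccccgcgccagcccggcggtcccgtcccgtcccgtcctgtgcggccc
The box stood in 8 of 32 windows of the contractile list (25%) and in 6 of 23 of its members called higher (26.1%). It stood in 1.84% of the windows of all genes called higher and in 1.04% of all 11590.

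Adhesion and matrix genes also rose. Of 35 tested integrin and laminin chains 15 rose and 1 fell (median 0.57), and of 31 collagen chains 14 rose and 3 fell (median 0.59). ITGAV, a receptor for vitronectin and latent TGF-beta, was at 313.9 and 957.3 CPM in pair P17 and at 392.6 and 973.5 in pair P4 (1.46 ± 0.13, adjusted p = 0.000129). COL7A1, the anchoring fibril collagen, rose by 1.19 ± 0.12, and COL4A2, of basement membranes, by 1.24 ± 0.14. COL4A2 lost its call without the block (adjusted p = 0.126), and 9 integrin and laminin chains and 5 collagens rose without it. With any 1 of the 4 libraries left out 6 to 13 and 6 to 10 rose.

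In the mesenchymal list 11 of 24 rose and COL3A1 fell (median 0.43). Without the block 4 rose, and with any 1 of the 4 libraries left out 4 to 7. FBN1, a microfibril protein, was at 45.6 and 127.1 CPM in pair P17 and at 34.2 and 94.9 in pair P4 (1.48 ± 0.12, adjusted p = 5.86e-05). TNC, the matrix protein tenascin C, was at 12.01 and 95.5 CPM in pair P17 and at 1.39 and 5.71 in pair P4 (2.66 ± 0.29, and adjusted p = 0.235 without the block). Control P17 thus lay above TP-0903 P4 for TNC. The fibroblast genes DCN, COL1A2 and FAP were at 0.0586 CPM or less in the 4 libraries. COL1A1, THY1 and COL3A1 were higher, at 8.43 to 16.8, 5.49 to 10 and 2.13 to 7.14 CPM. The sum of 9 fibroblast markers was 28.3 and 30.5 CPM in the controls and 18.1 and 29.3 with TP-0903. Epithelial junction genes rose in 9 (34.6%) and fell in 4 (15.4%) of 26, beside 12.9% and 13.4% of all tested genes. DSC3, a desmosomal cadherin, was at 5.41 and 29.9 CPM in pair P17 and at 9.34 and 33.7 in pair P4 (2.15 ± 0.22). The keratin KRT19 rose from 95.9 to 344.3 and from 71.4 to 217.5 CPM (1.73 ± 0.18).

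Targets of YAP and TAZ, which read out cell tension, rose in 10 of 24 genes and fell in 1, the factor TEAD4 (median 0.29). CTGF was at 41.1 and 147.8 CPM in pair P17 and at 47.5 and 96.4 in pair P4 (1.43 ± 0.18, adjusted p = 0.000806), and CYR61 rose by 1.27 ± 0.27. Without the block 2 members rose, and 2 to 9 with any 1 of the 4 libraries left out. Letters of a TEAD site, GGAATG on either strand, stood in 7 of 19 windows of the list (36.8%) and in 11% of all.

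Lysosomal and antigen presentation genes rose by less than 2-fold for the most part. Of 39 tested lysosome and autophagy genes 17 rose and 0 fell (median 0.34). In a list of 24 genes of the V-ATPase, which acidifies the lysosome, 11 rose and 2 fell (median 0.32). Those that fell were ATP6V0A2 and ATP6V1G2-DDX39B, a read-through with DDX39B that entered the list by name. NEU1, a sialidase, was at 29.5 and 58.7 CPM in pair P17 and at 32.8 and 51.6 in pair P4 (0.82 ± 0.13, adjusted p = 0.0026), and SMPD1, acid sphingomyelinase, rose by 1.37 ± 0.16. The autophagy receptor SQSTM1 did not pass the test (0.24 ± 0.16). Without the block 7 lysosomal genes and 6 V-ATPase subunits rose, and with any 1 of the 4 libraries left out 1 to 6 and 0 to 4. SMPD1 lost its call without the block (adjusted p = 0.0536). Of 18 genes of MHC class I presentation 9 rose and 0 fell (median 0.41), and 1 rose without the block and 1 to 5 with any 1 of the 4 libraries left out. TAP1, the peptide transporter, was at 34.8 and 120.7 CPM in pair P17 and at 31.3 and 75.6 in pair P4 (1.53 ± 0.16, adjusted p = 0.000272), and B2M rose by 0.49 ± 0.10.

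Signalling pathways named in work on resistance to kinase inhibitors changed in some members only. Of 24 tested genes of JAK and STAT signalling 6 rose (25%) and 3 fell (12.5%), beside 12.9% and 13.4% of all tested genes. STAT3 was at 319.0 CPM in control P17 and 619.5 in TP-0903 P17, and at 283.9 in control P4 and 555.5 in TP-0903 P4 (0.96 ± 0.11, adjusted p = 0.000437). JAK1 was at 296.3 and 469.3 CPM in pair P17 and at 317.2 and 541.0 in pair P4 (0.72 ± 0.11, adjusted p = 0.00172). For both genes the drug libraries lay above both controls. STAT5A (0.84 ± 0.16), STAT5B (0.50 ± 0.11), LIFR (0.36 ± 0.11) and OSMR (0.62 ± 0.12), a receptor of oncostatin M, also rose. The feedback inhibitors SOCS2 (-0.64 ± 0.21) and SOCS3 (-0.42 ± 0.13) and the cytokine IL11 (-1.29 ± 0.19) fell. SOCS2 and SOCS3 lost their call in limma-voom, and SOCS3 and LIFR in DESeq2. JAK2 did not pass the test. Without the block STAT3, JAK1 and OSMR were called, and with any 1 of the 4 libraries left out 1 to 4 members rose. The median of the list was 0.13, and -0.02 and -0.03 without control P17 and without TP-0903 P17.

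**Figure D5:**
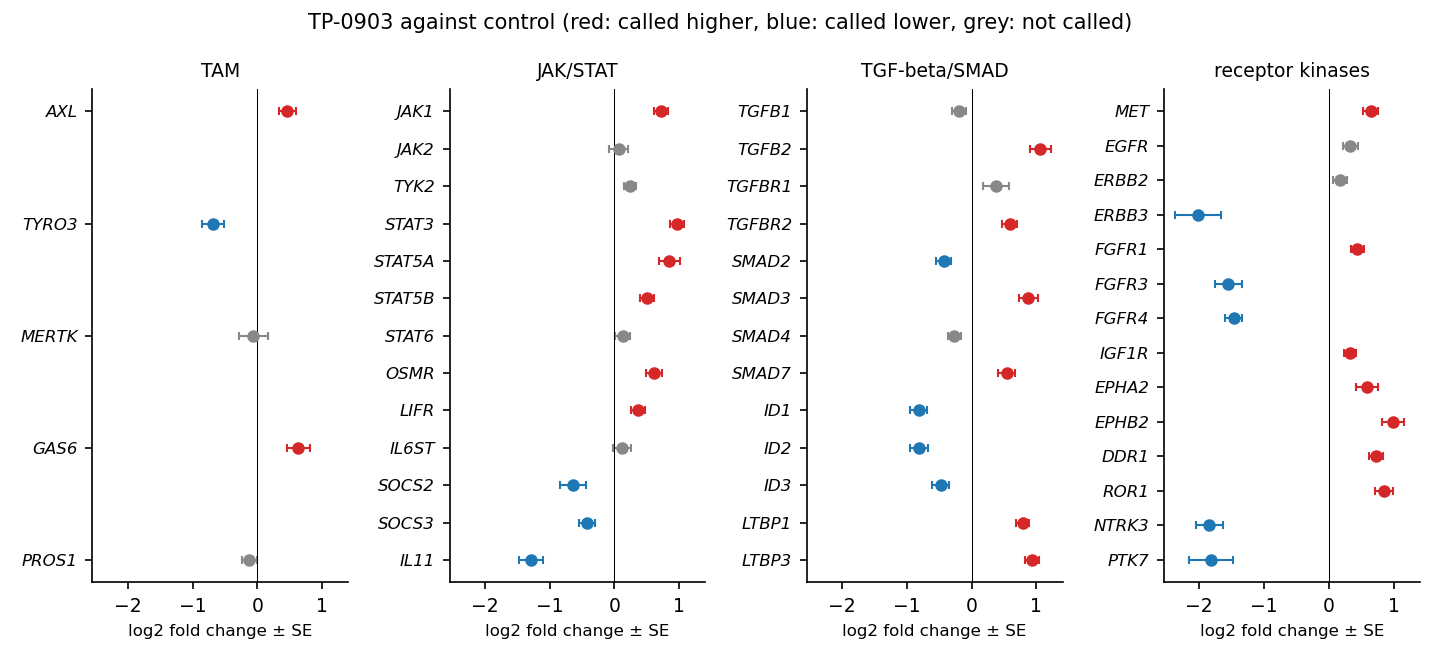
Points give the log2 fold change of TP-0903 against control with its SE for genes of the TAM family, JAK and STAT signalling, TGF-beta and SMAD signalling, and other receptor tyrosine kinases. Red points were called higher, blue points lower, and grey points did not pass the test. STAT3 and TGFB2 lie to the right, and IL11, ERBB3 and the ID genes to the left.

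In the TGF-beta and SMAD list 11 of 34 tested genes rose and 5 fell, with 3 higher and 0 lower without the block and 2 to 8 higher with any 1 of the 4 libraries left out. SMAD3 was at 219.6 and 462.1 CPM in pair P17 and at 247.7 and 396.8 in pair P4 (0.88 ± 0.15, adjusted p = 0.00329), while SMAD2 fell (-0.43 ± 0.11, adjusted p = 0.0217, and 0.166 without the block). SMAD4 did not pass the test (-0.27 ± 0.10, adjusted p = 0.0852). The ligand TGFB2 rose by 1.06 ± 0.16, the receptor TGFBR2 by 0.59 ± 0.12 and the latent binding proteins LTBP1 and LTBP3 by 0.79 ± 0.11 and 0.93 ± 0.11. TGFB2, TGFBR2, LTBP1 and LTBP3 lost their call without the block. As a share, 32.4% of the list rose and 14.7% fell, beside 12.9% and 13.4% of all tested genes. The targets of BMP signalling ID1, ID2 and ID3 fell by 0.82, 0.82 and 0.48.

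Another 7 receptor tyrosine kinases of the list were too low to test. Of 28 tested outside the TAM family 8 rose (28.6%) and 5 fell (17.9%), beside 12.9% and 13.4% of all tested genes. Without the block DDR1 and ROR1 were called higher and NTRK3 and FGFR3 lower, and the others lost their call, and with any 1 of the 4 libraries left out 0 to 5 rose. ROR1 (0.86 ± 0.14), EPHB2 (0.99 ± 0.17), DDR1 (0.73 ± 0.11) and MET had the smallest p among those that rose. DDR1, a collagen receptor, was at 97.3 and 176.6 CPM in pair P17 and at 106.9 and 161.5 in pair P4. FGFR4 fell from 29.97 to 9.29 CPM in pair P17 and from 51.6 to 21.4 in pair P4 (-1.47 ± 0.13, adjusted p = 0.000142, and 0.0756 without the block), while FGFR1 rose (0.44 ± 0.10). NTRK3, FGFR3, PTK7 and ERBB3 fell by 1.85, 1.55, 1.82 and 2.02. EGFR, at 302.4 and 345.6 CPM in pair P17 and 215.2 and 299.4 in pair P4, did not pass the test (0.33 ± 0.12, adjusted p = 0.0706). Of 9 EGF receptor ligands 4 rose (44.4%), HBEGF (1.47 ± 0.29), TGFA (0.91 ± 0.16), EGF and NRG1. AREG fell (-0.72), which is 11.1% of the ligands, and of all tested genes 12.9% rose and 13.4% fell. Without the block HBEGF alone of these ligands was called. Of 20 genes of ERK output and feedback 3 rose (15%), FOSL1 (1.48 ± 0.20), CCND1 and SPRED3, and ETV4 fell (5%), beside 12.9% and 13.4% of all tested genes. DUSP6 (0.29 ± 0.18) and SPRY4 (-0.16 ± 0.15) did not pass the test.

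Inflammatory lists were mixed. Of 43 interferon-stimulated genes 9 rose (20.9%) and 7 fell (16.3%), and of 28 NF-kB targets 9 rose (32.1%) and 3 fell (10.7%). Of all tested genes 12.9% were higher and 13.4% lower. Without the block 4 interferon-stimulated genes rose and 1 fell, and 5 NF-kB targets rose and 2 fell. With any 1 of the 4 libraries left out 3 to 5 and 2 to 10 rose. DDX58, an RNA sensor, was at 8.41 and 36.3 CPM in pair P17 and at 9.39 and 29.8 in pair P4 (1.89 ± 0.14, adjusted p = 3.79e-05), and ISG15 rose by 1.73 ± 0.17, while OAS3 fell by 0.87, and IFITM1, IFITM2, USP18, ISG20, IFI35 and HERC5 fell and lost their call without the block. TNFAIP2 was at 369.2 and 763.9 CPM in pair P17 and at 369.4 and 756.4 in pair P4 (1.04 ± 0.10), and TNFAIP3, a brake on NF-kB, rose from 6.55 to 33.6 and from 6.57 to 12.4 (1.66 ± 0.28, and adjusted p = 0.0528 without the block). CXCL2, PTGS2 and BCL3 fell, PTGS2 with no call without the block.

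Targets of NRF2, which is constitutively active in A549 because KEAP1 is mutated, fell in 9 and rose in 2 of 30 genes, and none was called without the block and 1 to 3 fell with a library left out. HMOX1 was at 444.7 and 234.2 CPM in pair P17 and at 625.5 and 463.3 in pair P4 (-0.68 ± 0.16, adjusted p = 0.0155), with control P17 below TP-0903 P4. NQO1 did not pass the test (-0.09 ± 0.12). As a share, 30% of the NRF2 list fell and 6.67% rose, beside 13.4% lower and 12.9% higher of all tested genes. Cholesterol synthesis genes rose in 8 of 26 (30.8%) and fell in 3 (11.5%), beside 12.9% and 13.4% of all tested genes. HMGCS1 (0.60 ± 0.11, and adjusted p = 0.0864 without the block) was among those that rose, and EBP and ACAT2 among those that fell. Without the block 3 rose and 1 fell, and 2 rose whichever of the 4 libraries was left out. The fibrinogen genes, expressed by A549, fell in both pairs from control levels that differed: FGB was at 26.6 and 4.04 CPM in pair P17 and at 103.1 and 20.5 in pair P4 (-2.49 ± 0.18, adjusted p = 3.45e-05, and 0.142 without the block), and FGA and FGG fell by 1.76 and 1.83. Of 30 genes of Wnt signalling 4 fell (13.3%) and 3 rose (10%), DKK3, LRP5 and WNT7A. These shares were no larger than those of all tested genes, 13.4% lower and 12.9% higher. Without the block 2 Wnt genes fell and 0 rose. AXIN2, a feedback target, fell from 13.3 to 3.77 and from 14.0 to 4.22 CPM (-1.77 ± 0.21).

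Many calls lay outside all 67 lists, 3724 of the 4647. Of the protein-coding genes at 5 CPM or more with the largest rises, EPPK1, the cytolinker epiplakin, was at 0.757 CPM in control P17 and 12.3 in TP-0903 P17, and at 0.843 in control P4 and 7.21 in TP-0903 P4 (3.55 ± 0.34, adjusted p = 0.000201). SPOCD1, TMEM265, PLA2G4C, a phospholipase, and GBP2, an interferon-induced GTPase, rose by 3.04 to 3.22. GLIPR1 was at 76.6 and 461.7 CPM in pair P17 and at 44.5 and 244.0 in pair P4 (2.52 ± 0.26). LIMS2, an adhesion adaptor, C15orf48 and the receptor TNFRSF9 rose by 2.46 to 2.53. Falls outside the cell division genes, named after their values were seen, included SPDEF, an epithelial transcription factor (-2.89 ± 0.24), and CPLX2, a complexin of secretory vesicles, at 729.3 and 94.3 CPM in pair P17 and at 1597 and 479.0 in pair P4 (-2.34 ± 0.30, and adjusted p = 0.112 without the block).

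The drug effect was also set beside that of AXL knockdown. The difference between the TP-0903 effect and the AXL shRNA effect was tested in the same fit, with no library shared between the arms. It passed for 6530 genes (36.9%), 3282 of them higher and 3248 lower with the drug. Of the 2285 genes higher with the drug, 1129 were higher (49.4%) and 338 lower (14.8%) with AXL shRNA. Of the 2362 lower genes 944 were lower (40%) and 492 higher (20.8%). Among all 17676 tested genes 4523 were higher and 4615 lower with AXL shRNA. Of the genes not called with the drug, 22.3% were higher and 25.6% lower with AXL shRNA. AXL itself fell with the hairpin (-0.89 ± 0.14, adjusted p = 0.000858) and the difference was 1.35 ± 0.19 (adjusted p = 0.00111). Of the 239 cell cycle genes, 198 were lower with the drug by that test, where the AXL hairpin libraries start from the low level given above. CCNA2, the S and G2 cyclin, was at 94.5 and 10.3 CPM in pair P17 and at 55.9 and 6.80 in pair P4, and differed by -3.88.

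The amino acid stress genes fell in both arms, 26 with the drug and 31 of 37 with AXL shRNA, and PHGDH fell by 2.85 and 3.77. By the test of the difference 17 of the 37 were higher with the drug than with the hairpin and 2 were lower. Of all 17676 tested genes, 3282 were higher and 3248 lower by this test, the background for each list count here. Heat shock, NF-kB, interferon and glycolysis genes were lower with the drug than with the hairpin for 15 of 23, 18 of 28, 26 of 43 and 22 of 35 genes. The contractile genes rose in 26 of 36 in each arm, and the difference was called higher for 14 and lower for 7. Ribosomal protein genes were lower with the drug by the test of the difference in 26 of 85. In the list of snoRNA hosts and other nuclear long RNAs 11 of 22 were lower. Without the replicate block the difference was called for 3645 genes.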

How the data were processed

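RNA was sequenced from A549 cells, 2 libraries in each of 4 groups, and the 4 libraries of TP-0903 and of control without a hairpin are compared. Reads were handled with STAR 2.5.3a and RSEM on build GRCh38, per the submitters' processing notes, and neither the annotation nor the use of strand is given in the sources used here. Per the file headers, the deposited tables hold RSEM expected counts, TPM, FPKM and gene lengths for each gene and library, and FPKM entered no result. The deposited expected counts were rounded to whole numbers and tested with the quasi-likelihood test of edgeR 4.0.16 (R 4.3.3), two-sided, with TMM scaling, the default filter on low counts and Benjamini-Hochberg adjustment over all tested genes. The fit held all 8 libraries, the P number as a replicate block, and an effect each of TP-0903 and of AXL shRNA. It has 2 residual degrees of freedom, raised by 6.51 prior ones, and every adjusted p in the text comes from it unless another fit is named. Same-numbered libraries deviated together from their group means (r = 0.66 for P17 and P4, 0.589 for P15 and P3 over genes). With 2 libraries a group, both pairs of an arm must give the same r, so each r is 1 value per arm. The pairing itself comes from the P number in the titles. CPM are counts over the scaled library total, and changes within a pair use CPM plus 0.5. The deposited TPM were used for levels per length and, as log2 values, in an alternative with limma 3.58.1. DESeq2 1.42.0 was another alternative. The fit was tested on simulated data with known changes. Promoter windows came from RefSeq (GRCh38.p14) and matched 11590 of the 17676 tested genes by name.

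The comparison, its members and the gene lists were chosen with earlier results of these data known. The genes named are AXL, the members of the TAM, drug target, JAK and STAT, SMAD and receptor kinase lists, the 12 largest rises and falls among protein-coding genes at 5 CPM or more with groups apart, the 12 largest falls outside the cell cycle lists, up to 4 members of smallest p for each list with 3 or more calls in 1 direction, and 5 genes of smallest p in each direction of the difference from AXL shRNA. Other genes named were chosen after their values were seen. These are the promoters' MCM2, SLC7A1, FLNA and CNN2, the members of a list that went against it, and the well-known members given because they did or did not pass the test, such as MYC, NQO1 and SQSTM1. Some items chosen by the rule are not reported here.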

Additional observations from a re-analysis of the deposited data

Results flagged for a closer look

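The effect of TP-0903 differed from that of AXL shRNA for 6530 genes in the test of the difference (edgeR, adjusted p under 0.05). Of these, 3282 were higher and 3248 lower with TP-0903. Of the 239 cell cycle genes, 198 were lower with TP-0903 by this test. AXL differed by 1.35 on the log2 scale, rising with the drug and falling with the hairpin.

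The genes with the smallest p in the difference were on one side mitotic genes. CDC20 differed by -4.03, KIF18B by -3.98, CCNA2 by -3.88 and AURKA by -3.66, and each fell with the drug and rose from a low level with the hairpin: AURKA was at 16.02 and 19.3 CPM in the control shRNA libraries and at 44.4 and 49.7 in those of AXL shRNA. SCG2, which encodes secretogranin II, differed by -4.67, at 15.8 and 39.4 CPM in the control shRNA libraries and 210.0 and 537.6 in those of AXL shRNA, beside 4.79 and 16.3 in control and 3.12 and 7.47 with TP-0903. On the other side SEL1L, of protein degradation in the endoplasmic reticulum, differed by 2.67, PALLD, the actin-binding palladin, by 2.77, LIPH, a lipase, by 2.73, CASC4 by 3.03 and SLC39A11, a zinc transporter, by 2.75. All 5 fell with the hairpin, and PALLD rose with the drug from 252.5 to 569.2 CPM in pair P17 and from 246.7 to 448.3 in pair P4. CASC4 did not pass the test with the drug (0.26 on the log2 scale).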

How the results depend on the processing

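The number of genes called for TP-0903 against control was within 1.5 times of 4647 with RLE or upper quartile scaling, no filter, a mean of at least 5 CPM, effective lengths as offsets, DESeq2, limma-voom, limma on log2(TPM + 1) or log2(TPM + 0.1), the 4 libraries alone with the block, and, added after seeing the data, scaling from other genes, over a range of 3098 to 5502. It was 1989 without the replicate block, 1616 with the 4 libraries alone and no replicate block, and 1176 when a fold change of 1.5 was tested. With 1 library left out it ranged from 886 to 2604. The difference from AXL shRNA gave 3645 genes without the replicate block, and 3013 to 6364 with 1 library left out, the lowest without TP-0903 P17 and 3683 without control P17.

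Of 383 genes examined, 315 were called. All 315 kept their sign under each alternative run for them, left-out libraries included, 122 were called under each of these, and 147 were called whichever of the 4 libraries was left out. The calls lost were 126 without the block, 57 with limma on log2(TPM + 1), 23 with lengths as offsets, 11 with DESeq2 and 4 with limma-voom. Of 34 list medians 31 kept their sign. That of the JAK and STAT genes, 0.13, was -0.02 without control P17 and -0.03 without TP-0903 P17. The median of the receptor tyrosine kinases, 0.10, became -0.11 with the 4 libraries alone and no replicate block, -0.16 with no filter, -0.046 with lengths as offsets and -0.047 with log2(TPM + 0.1). That of the acute phase and complement genes, -0.29, became 0.02 with a mean of at least 5 CPM. With 1 library left out a single pair gives the value, and STC2 then ranged from -1.787 to 0.93 and ATF3 from -0.867 to 1.626. The cause of the other changes was not tested.

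With 2 libraries a group, small changes and genes at low counts are the least certain: the median SE was 0.561 for genes under 1 CPM and 0.108 for those over 100 CPM. A lone library left in a group is assumed to vary like the others.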

Other observations

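Of 14308 protein-coding genes 29.8% were called, beside 9.25% of 1060 antisense genes and 12.8% of 766 long intergenic RNAs. Of 389 processed pseudogenes 27 fell and 9 rose, with a median log2 fold change of -0.22. Most of these are near-identical copies of expressed genes, so reads of the parent gene can be counted there. Without strand information an antisense gene and its partner cannot be told apart.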
